A study of Mus musculus with 6 samples.

Results

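The miR-29 and miR-30 families are 2 groups of microRNAs known for holding down the transcripts of extracellular matrix proteins. Their guide strands were picked by assay name alone (miR-29a, miR-29b, miR-29c, miR-30a, miR-30b, miR-30c, miR-30d and miR-30e, without star strands), and all 8 were present among the 517 microRNA assays measured. The samples were whole aortas of 6 male Apoe-deficient mice, a strain that develops atherosclerosis on a fat-rich diet. In 3 of them (Dicer_KO aortas, genotype LysM-Cre/Dicerflox/flox/Apoe-/-) both copies of Dicer were floxed and Cre recombinase was driven by the LysM (lysozyme M) gene. The other 3 (Dicer_WT aortas, genotype LysM-Cre/Dicerwt/wt/Apoe-/-) were littermates that carried the same Cre and the same loss of Apoe with wild-type Dicer. All mice entered the diet, with 21% crude fat, at 6 to 8 weeks of age and stayed on it for 12 weeks. The LysM gene is used by monocytes, macrophages and neutrophils and not by most cells of the vessel wall, so that whole aortas hold many cells with intact Dicer. The share of cells that lost Dicer was not measured.

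Dicer is the endonuclease that cuts microRNA hairpins into short duplexes, of which the guide strand is loaded into the silencing complex and the passenger (star) strand is mostly discarded. The miR-29 family represses transcripts of fibrillar collagens, elastin and fibrillin, and it is lowered by transforming growth factor beta in fibroblasts. Members of the miR-30 family repress, among others, connective tissue growth factor, a matricellular protein that fibroblasts and smooth muscle cells release. Both families are abundant in heart, vessel and kidney, and neither is specific to macrophages.

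The sequences below show what sets the 2 families apart and how little sets their members apart. RefSeq (build GRCm38.p6) held a mature sequence for 6 of the 8 members, and miR-30b and miR-30d are named only. Each is written 5′ to 3′ in RNA letters with bases 2 to 8, the seed that pairs with target transcripts, in capitals. The assay names carry no arm, and the strand shown is the 3p arm for miR-29 and the 5p arm for miR-30.
miR-29a: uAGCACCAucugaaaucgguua
miR-29b: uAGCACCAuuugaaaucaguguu
miR-29c: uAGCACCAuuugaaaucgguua
miR-30a: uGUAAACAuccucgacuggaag
miR-30c: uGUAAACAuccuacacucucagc
miR-30e: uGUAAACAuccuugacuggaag
miR-384-5p: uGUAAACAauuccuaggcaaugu

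Positions are counted from 1 at the 5′ end. miR-29a and miR-29c differed by the single substitution C10U (miR-29a base first), and miR-30a and miR-30e by C13U (miR-30a base first). From miR-29a to miR-29b there were 4 substitutions over the 22 positions compared (C10U, G18A, U21G and A22U), and from miR-30a to miR-30c there were 5 (C13A, G14C, G18C, G19U and A20C). All of these lay outside the seed. Among 1679 mature mouse microRNAs in the RefSeq table, the seed AGCACCA was that of 3 (0.179%), all of them miR-29 members. The seed GUAAACA was that of 4 (0.238%), which were miR-30a, miR-30c, miR-30e and one assay outside the family name, miR-384-5p. This count could not include miR-30b and miR-30d, which had no sequence in the RefSeq table, and it does not show that they lack the seed.

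The mature sequences lie in small hairpin clusters. The miR-29a sequence is at chr6:31062673-31062694 on the minus strand, with 275 bases between its hairpin and that of Mir29b-1. The miR-29b sequence has copies at chr6:31063025-31063047 (minus strand, Mir29b-1) and chr1:195037091-195037113 (plus strand, Mir29b-2), and the miR-29c sequence is at chr1:195037600-195037621 (plus strand). The hairpins of Mir29b-2 and Mir29c, 426 bases apart, both lie within the span of the long noncoding RNA gene A330023F24Rik. For miR-30, the miR-30a sequence is at chr1:23272274-23272295 (plus strand), with 19361 bases between its hairpin and that of Mir30c-2. The miR-30c sequence has copies at chr1:23291714-23291736 (plus strand, Mir30c-2) and chr4:120769584-120769606 (minus strand, Mir30c-1). The miR-30e sequence is at chr4:120772660-120772681 (minus strand), and both chromosome 4 hairpins lie within the span of Nfyc, a transcription factor gene. The table used gives gene spans and not exons, so exonic or intronic position is not stated. An assay for miR-29b or miR-30c reads the sum of both copies, since the mature sequences are the same.

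Each microRNA was read once per aorta by TaqMan PCR as the PCR cycle at which its signal crossed a threshold (Ct), so a higher Ct means less RNA. Ct values of different assays are not levels that can be set against each other, because the assays differ in efficiency. Levels are given below as the relative quantity deposited by the authors, a linear ratio scaled to a geometric mean of 1 over the Dicer_WT aortas. Below Ct 35, taken as detected, lay 349 to 366 assays per Dicer_KO aorta and 374 to 378 per Dicer_WT aorta. All 8 members were detected in all 6 aortas, with Ct values from 15.142 to 23.325, so no member had a set value and none depended on the filter on detection. The arrays hold no assay for Dicer mRNA, and the genotype labels could not be checked. The labels call the replicates biological, and each aorta was taken as 1 mouse. They name macrophage as the cell type beside aorta as the tissue. The smooth muscle microRNA miR-145 (Ct 12.4 ± 0.465 in Dicer_KO and 11.8 ± 0.237 in Dicer_WT aortas, SD, n = 3 each) and the myeloid miR-223 (Ct 21.5 ± 0.433 in Dicer_KO and 19.6 ± 0.468 in Dicer_WT aortas) were both detected in every aorta.

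The comparison sets aortas with Dicer deleted in LysM-expressing cells against those with Dicer intact. No member of either family passed the threshold (limma, adjusted p = 0.245 to 0.739 over all 377 assays tested), where 1.86% of all assays were called, all of them lower in Dicer_KO aortas. At an unadjusted p under 0.05 the members' count was also 0, where 24.4% of all assays were lower and 2.39% higher. On the scale of the authors, the log2 fold changes of the 8 (Dicer_KO over Dicer_WT) ran from -0.37 to -0.074. All 8 were thus below 0, as were 78.2% of all assays. The 95% intervals of the 8 fold changes ran from 0.549 at the lowest to 1.26 at the highest. These are whole aortas, in which fewer cells of a type and less RNA per cell cannot be told apart.

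**Figure D1:**
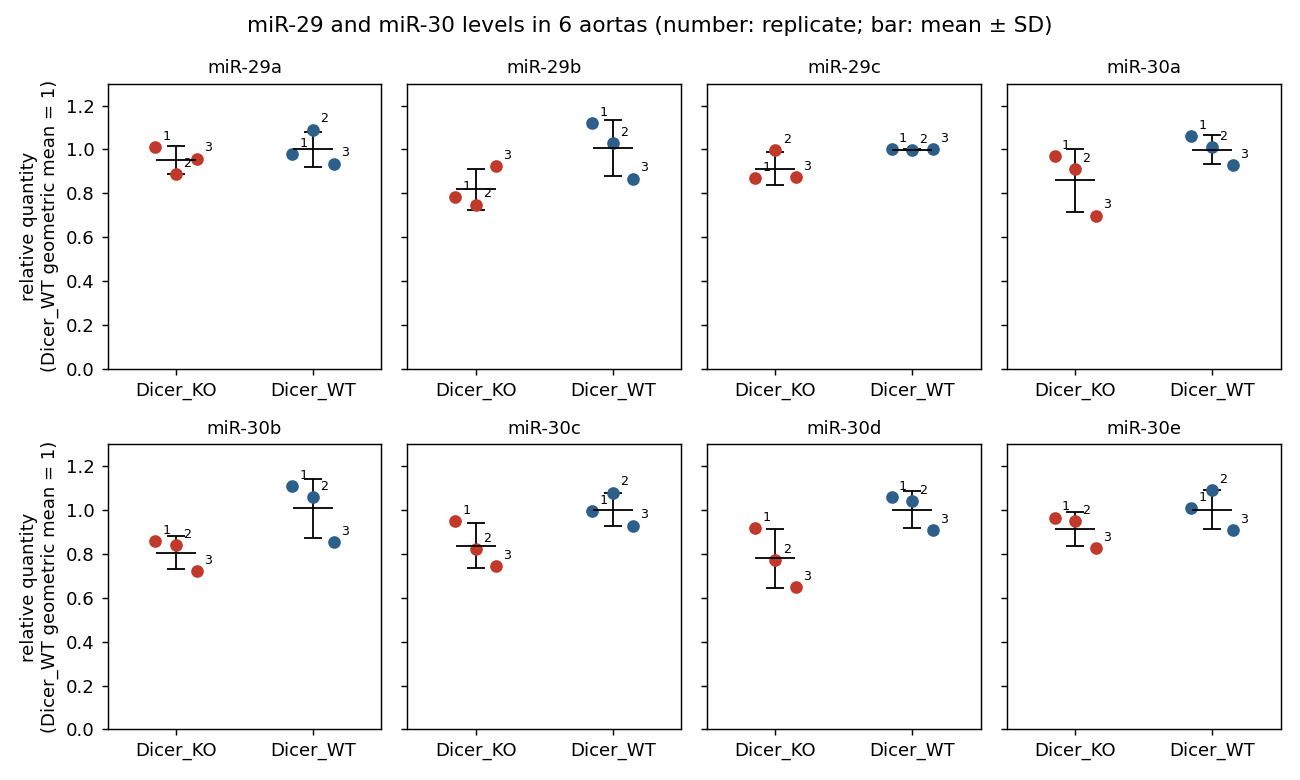
Relative quantity (linear, Dicer_WT geometric mean = 1) of each member in the 3 Dicer_KO aortas (red, left) and the 3 Dicer_WT aortas (blue, right), with the replicate number beside each point and the mean ± SD as black bars. The ranges of the 2 groups overlap in all 8 panels, with values from 0.649 to 1.01 in Dicer_KO aortas and from 0.853 to 1.12 in Dicer_WT aortas.

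Among the miR-29 members, miR-29a had relative quantities of 1.01, 0.886 and 0.958 in the Dicer_KO aortas, against 0.979, 1.09 and 0.935 in the Dicer_WT aortas. The groups overlapped, and the highest Dicer_KO aorta stood above 2 of the 3 Dicer_WT aortas. Its log2 fold change was -0.074 ± 0.166 (SE, n = 3 each, limma adjusted p = 0.739), and 286 of the 377 assays tested had a lower one. For miR-29b, the member with 2 genomic copies, the values were 0.784, 0.748 and 0.924 in Dicer_KO aortas, against 1.12, 1.03 and 0.867 in Dicer_WT aortas. Of the Dicer_KO aortas, replicates 1 and 2 lay below every Dicer_WT aorta and replicate 3 lay inside their range. The log2 fold change of miR-29b was -0.29 ± 0.191 (limma adjusted p = 0.313). miR-29c measured 0.869, 0.998 and 0.872 in Dicer_KO aortas, against 1.00, 0.997 and 1.00 in Dicer_WT aortas. The Dicer_WT aortas were nearly alike here (SD 0.00285), and Dicer_KO replicate 2 fell inside their narrow range. For miR-29c the log2 fold change was -0.13 ± 0.160 (limma adjusted p = 0.539).

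Within the miR-30 family, miR-30a had relative quantities of 0.968, 0.909 and 0.698 in Dicer_KO aortas, against 1.06, 1.01 and 0.928 in Dicer_WT aortas. Dicer_KO replicate 3 was the lowest of the 6 aortas and replicate 1 lay within the Dicer_WT range. The log2 fold change of miR-30a was -0.23 ± 0.198 (SE, n = 3 each, limma adjusted p = 0.396). For miR-30b the values were 0.859, 0.839 and 0.723 in Dicer_KO aortas, against 1.11, 1.06 and 0.853 in Dicer_WT aortas. The overlap was slight, since only Dicer_KO replicate 1 stood above the lowest Dicer_WT aorta. Its log2 fold change was -0.31 ± 0.190 (limma adjusted p = 0.280). miR-30c measured 0.949, 0.821 and 0.744 in Dicer_KO aortas, against 0.995, 1.08 and 0.930 in Dicer_WT aortas, with a log2 fold change of -0.26 ± 0.180 (limma adjusted p = 0.328). As for miR-30a and miR-30b, Dicer_KO replicate 1 was the one aorta of its group inside the Dicer_WT range.

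The lowest log2 fold change of the 8 was that of miR-30d, whose hairpin is clustered with that of miR-30b. It measured 0.918, 0.773 and 0.649 in Dicer_KO aortas, against 1.06, 1.04 and 0.908 in Dicer_WT aortas. Dicer_KO replicates 2 and 3 lay below every Dicer_WT aorta, and replicate 1 lay just above the lowest of them. The log2 fold change of miR-30d was -0.37 ± 0.200 (limma adjusted p = 0.245), a fold of 0.772 with a 95% interval of 0.549 to 1.09. For miR-30e the values were 0.966, 0.951 and 0.827 in Dicer_KO aortas, against 1.01, 1.09 and 0.909 in Dicer_WT aortas. Here replicates 1 and 2 of the Dicer_KO aortas were both inside the Dicer_WT range. Its log2 fold change was -0.13 ± 0.173 (limma adjusted p = 0.573). The authors' deposited table of fold changes gave, for Dicer_KO over Dicer_WT, 0.949, 0.814 and 0.913 for miR-29a, miR-29b and miR-29c. For miR-30a to miR-30e the authors' deposited table gave 0.857, 0.802, 0.836, 0.778 and 0.912. These 8 deposited folds equalled the ratio of the group means of the relative quantities within 0.1%.

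Set beside the other assays, the members had small differences. The median log2 fold change was -0.25 over the 8 members, -0.13 over the 3 miR-29 members and -0.26 over the 5 miR-30 members, against -0.42 over all 377 assays tested. Each of the 8 lay above that median. With no filter on detection the median of all assays was -0.22, and 3 of the 8 members lay above it. Of the 8, 6 lay above the median of all assays after quantile normalization, and 7 did so relative to U87 and Y1, with undetected wells missing or without Dicer_KO replicate 3. The groups overlapped for every member, 0 of 8, whereas they did not overlap for 35% of the assays tested (32.6% lower in Dicer_KO aortas and 2.39% higher). Leaving out an aorta makes overlap rarer for any assay. Without Dicer_WT replicate 3, 6 of the 8 members did not overlap (miR-29b and the 5 miR-30 members), where 60.7% of all assays did not. Without Dicer_KO replicate 1, 4 of the 8 did not (miR-30a, miR-30b, miR-30c and miR-30d), where the share of all assays was 63.3%. Leaving out 1 aorta at a time, the median of the 8 members ran from -0.30 (without Dicer_KO replicate 1 or without Dicer_WT replicate 3) to -0.14 (without Dicer_KO replicate 3).

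**Figure D2:**
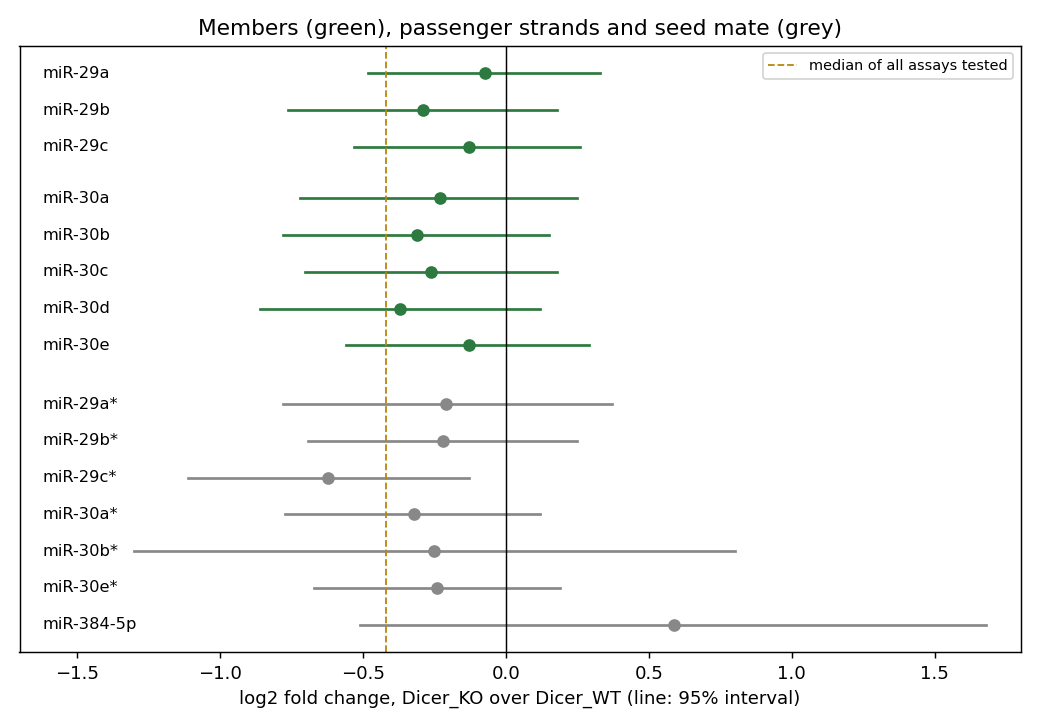
Log2 fold change (x axis, Dicer_KO over Dicer_WT) of the 8 members (green) and of 6 passenger strands and miR-384-5p (grey), with 95% intervals from limma as lines and the median of all 377 assays tested, -0.42, as a dashed line. Every member's interval includes 0, and that of miR-29c* does not.

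The sign of these small differences followed the reference RNA. The authors' quantities are relative to U6, snoRNA135 and snoRNA202, small RNAs that are made without Dicer. Each reference was measured against the mean of the references in its aorta and card, so a shift that they share could not show. On that scale they differed between Dicer_KO and Dicer_WT aortas by 0.21, -0.13 and -0.038 (log2, mean of both cards, exact permutation p = 0.4, 0.4 and 0.7, two-sided). The control RNAs that the authors did not use, U87 and Y1, differed on the same scale by -0.44 and -0.71 (exact permutation p = 0.1 and 0.2). Without normalization the median of all assays was -0.64, against -0.42 on the authors' scale. Relative to U87 and Y1, all 8 members turned above 0, from 0.14 for miR-30d to 0.44 for miR-29a, and the median of all assays was 0.16. With each aorta centred on its mean, 7 of the 8 turned above 0, with miR-30d at -0.0063, and the median of all assays was -0.13. After quantile normalization miR-29a, miR-29c, miR-30a, miR-30c and miR-30e lay above 0, miR-30b at 0.00, and miR-29b and miR-30d at -0.16 and -0.11.

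On none of these scales did a member pass the threshold. The smallest p of a member on them was that of miR-29a relative to U87 and Y1, higher in Dicer_KO aortas (limma unadjusted p = 0.0408, adjusted p = 0.229). In the other direction, miR-30d was lower without Dicer_KO replicate 1 on the authors' scale (limma unadjusted p = 0.0475, adjusted p = 0.116). Relative to the median of all assays on the same scale, the median of the 8 members stood at 0.17 on the authors' scale, 0.16 without normalization, 0.20 relative to U6 alone, 0.24 with mean centring, 0.13 after quantile normalization and 0.11 relative to U87 and Y1. Relative to U87 and Y1, 5 of the 8 members no longer overlapped between the groups, where 27.6% of all assays did not. Without normalization 2 of the 8 did not (miR-29b and miR-29c), where the share of all assays was 32.1%, and with mean centring 2 of the 8 did not (miR-29a and miR-30e), where it was 30.0%. After quantile normalization 2 of the 8 did not (miR-30a and miR-30e), where it was 29.2%.

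**Figure D3:**
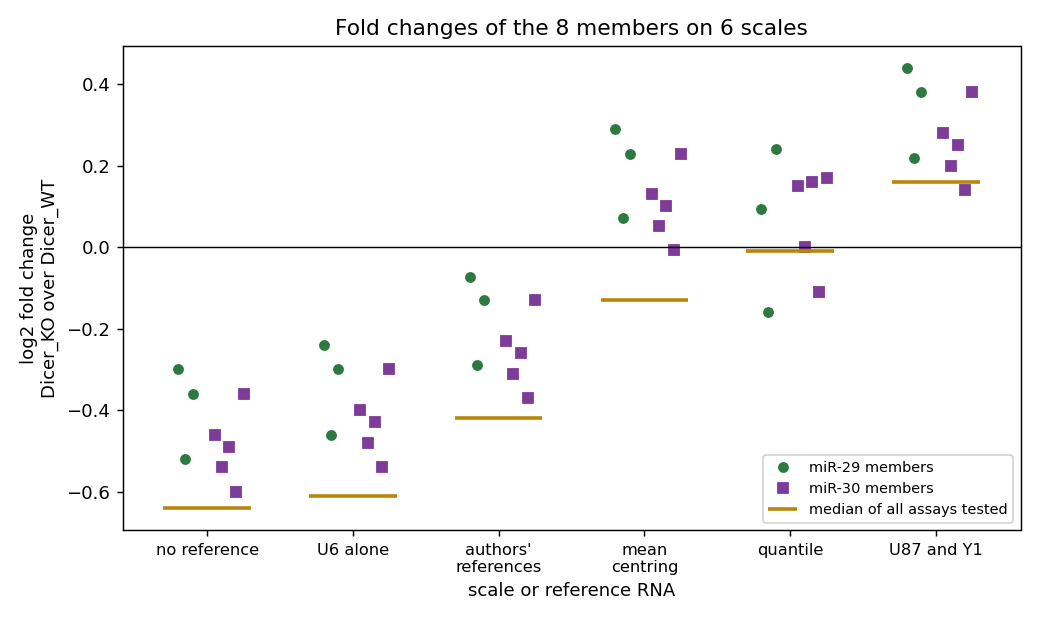
Log2 fold change (y axis, Dicer_KO over Dicer_WT) of the 3 miR-29 members (circles) and the 5 miR-30 members (squares) on 6 scales (x axis), with the median of all 377 assays as a bar. The bar lies at -0.64 with no reference RNA and at 0.16 relative to U87 and Y1, and on each of these 2 scales all members lie on 1 side of 0.

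A Ct difference between assays of the same aorta and card needs no reference RNA, and all 8 members were on 1 card. It was compared for 5 pairs of members whose hairpins share a cluster, each by an exact permutation test (two-sided, the smallest p that 3 against 3 allows being 0.1). Of the 5, the groups parted only for miR-30e against miR-30c. The Ct of miR-30c minus that of miR-30e was -3.785, -3.600 and -3.657 in Dicer_KO aortas, against -3.788, -3.801 and -3.844 in Dicer_WT aortas. All 3 Dicer_KO aortas thus lay above the Dicer_WT aortas, the first of them by a few thousandths of a cycle. The difference was 0.13 on the log2 scale in favour of miR-30e (exact permutation p = 0.1, adjusted p = 0.5 over the 5 pairs), and after quantile normalization it was 0.0079 (exact permutation p = 1). For miR-29a against miR-29b it was 0.22 and for miR-29c against miR-29b 0.16 (exact permutation p = 0.3 and 0.5). miR-30d against miR-30b differed by -0.059 and miR-30a against miR-30c by 0.029 (exact permutation p = 0.6 and 0.7, adjusted p = 0.7 for all 4 of these pairs). Without Dicer_KO replicate 2, miR-29c against miR-29b was at 0.033, without Dicer_KO replicate 3 at 0.28, and after quantile normalization at 0.40.

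Across the 6 aortas, the 5 miR-30 members varied together more closely than the 3 miR-29 members did. As a description, Pearson's r of the log2 relative quantities was 0.87 to 0.97 over the 10 pairs of miR-30 members (median 0.89). It was -0.11 to 0.54 over the 3 pairs of miR-29 members (median 0.30) and 0.28 to 0.71 over the 15 pairs across the families (median 0.53). The points share the reference RNAs of each aorta, and the miR-30 mean followed the median of all assays tested over the same aortas (r = 0.98, Spearman's rho 0.89, n = 6), as did the miR-29 mean less closely (r = 0.77, rho 0.77). With each aorta centred on its mean, the median r was 0.46 within miR-30 and 0.60 within miR-29, so the order of the families turned round.

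Averaged over its 5 members, miR-30 stood at -0.10, -0.22 and -0.46 on the log2 scale in Dicer_KO aortas, against 0.066, 0.078 and -0.14 in Dicer_WT aortas. All 5 members were below the Dicer_WT mean in each Dicer_KO aorta and in Dicer_WT replicate 3. The miR-29 average was -0.18, -0.20 and -0.12 in Dicer_KO aortas, against 0.046, 0.054 and -0.10 in Dicer_WT aortas. Dicer_KO replicate 3 was therefore the lowest aorta for the miR-30 average and the highest Dicer_KO aorta for the miR-29 average. By member, the highest Dicer_KO aorta was replicate 1 for miR-29a, replicate 3 for miR-29b and replicate 2 for miR-29c. Over all assays tested, the median deviation was -0.21, -0.40 and -0.62 in Dicer_KO aortas, against 0.10, 0.079 and -0.17 in Dicer_WT aortas.

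**Figure D4:**
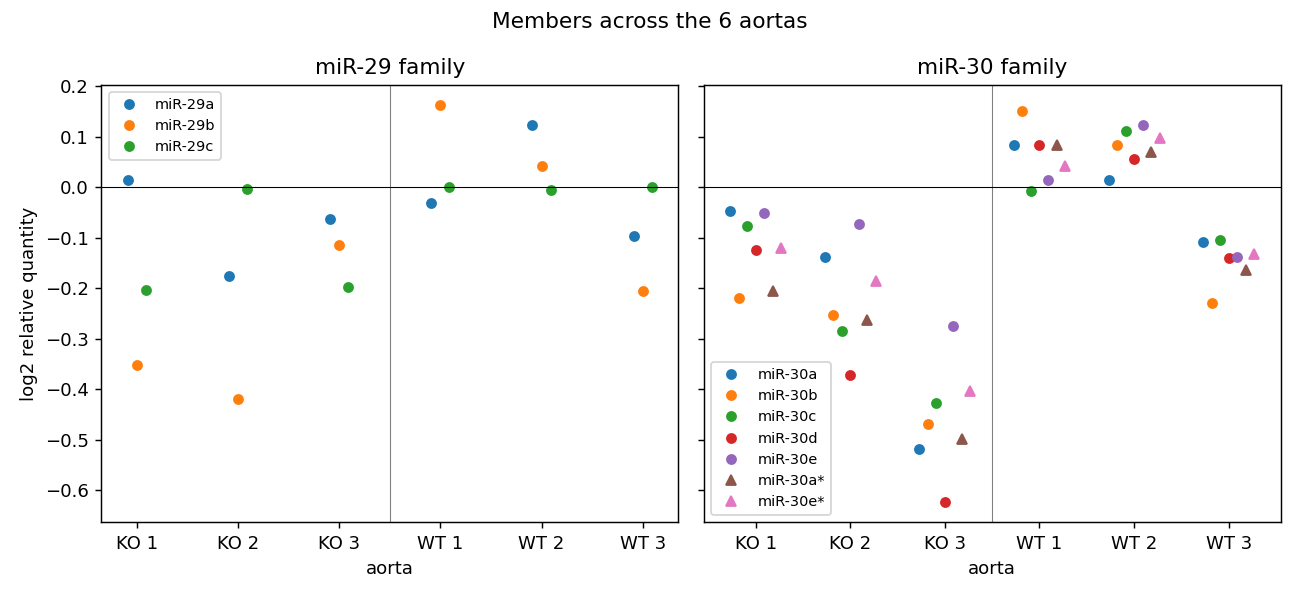
Log2 relative quantity (y axis) of the miR-29 members (left) and of the miR-30 members with the passenger strands miR-30a* and miR-30e* (right, triangles) in each Dicer_KO and Dicer_WT aorta (x axis). All 5 miR-30 members are lowest in Dicer_KO replicate 3, while the lowest aorta is Dicer_KO replicate 2 for miR-29a and miR-29b and Dicer_KO replicate 1 for miR-29c.

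The passenger strands of the members' hairpins were read on the other card. The guides miR-29b and miR-30c each come from 2 hairpins, so a passenger strand need not stem from all hairpins of its guide. Of the 9 passenger strands listed, 8 were on the array, and miR-30d* was not analysed here. On the scale of the authors all 8 lay below 0 (median log2 fold change -0.29), as did 78.2% of all assays, and 0 of 8 passed the threshold. The count and median include miR-30c-1* and miR-30c-2*, whose folds rest on the value set for empty wells. miR-29c* measured 0.720, 0.650 and 0.587 in Dicer_KO aortas, against 1.08, 1.12 and 0.830 in Dicer_WT aortas. Every Dicer_KO aorta lay below every Dicer_WT aorta, unlike for its guide strand miR-29c, and the log2 fold change was -0.62 ± 0.200 (SE, n = 3 each, limma adjusted p = 0.132, unadjusted p = 0.0214). The change of miR-29c* minus that of miR-29c was -0.49 (exact permutation p = 0.2, adjusted p = 0.6 over 6 guide and passenger pairs, a comparison added after the values were seen), so the arms were not shown to differ.

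The passenger strand miR-30a* measured 0.867, 0.834 and 0.708 in Dicer_KO aortas, against 1.06, 1.05 and 0.893 in Dicer_WT aortas. The groups did not overlap, by a narrow margin, and the log2 fold change was -0.32 ± 0.181 (limma adjusted p = 0.258). For miR-30e* the values were 0.920, 0.880 and 0.756 in Dicer_KO aortas, against 1.03, 1.07 and 0.912 in Dicer_WT aortas, with a log2 fold change of -0.24 ± 0.175 (limma adjusted p = 0.352). These 2 strands had Ct values of 18.1 ± 0.243 and 18.4 ± 0.239 in Dicer_KO aortas and 17.6 ± 0.299 and 18.0 ± 0.263 in Dicer_WT aortas (SD, n = 3 each). Relative to its guide, miR-30e* changed by -0.10 and miR-30a* by -0.088 (exact permutation p = 0.1 and 0.3, adjusted p = 0.6 each over 6 guide and passenger pairs). Both tracked their guides over the 6 aortas, with r = 0.95 for miR-30e and r = 0.92 for miR-30a. For the other guide and passenger pairs r was 0.88 for miR-29b, 0.62 for miR-29c, 0.53 for miR-29a and 0.52 for miR-30b. A high r is not particular to a hairpin here, since the miR-30 mean followed the median of all assays tested with r = 0.98.

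The other passenger strands were less even between aortas or showed small differences. miR-29a* and miR-29b* had log2 fold changes of -0.21 and -0.22 (limma adjusted p = 0.521 and 0.411). miR-30b* measured 1.60, 0.626 and 0.591 in Dicer_KO aortas, against 1.21, 0.928 and 0.892 in Dicer_WT aortas, so that Dicer_KO replicate 1 was the highest of all 6. miR-30c-1* was detected in 1 Dicer_KO and 2 Dicer_WT aortas, and miR-30c-2* in 2 Dicer_KO and 3 Dicer_WT aortas, with Ct 40 in the remaining wells. The wells with product lay at Ct 26.511 to 28.249, well under the cutoff of 35. No fold is given for either, since it would rest on the value set for the empty wells.

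On the scale of the authors, miR-384-5p, which carries the miR-30 seed on another backbone (chrX:105344332-105344354, minus strand), did not share the direction of the miR-30 members. It measured 1.29, 2.61 and 1.01 in Dicer_KO aortas, against 1.32, 0.670 and 1.13 in Dicer_WT aortas. The groups overlapped widely and the highest value was that of Dicer_KO replicate 2. The log2 fold change was 0.59 ± 0.445 (SE, n = 3 each, limma adjusted p = 0.359), not past the threshold. The direction of the miR-30 members itself depended on the scale, all of them being above 0 relative to U87 and Y1.

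A list of 18 other microRNAs discussed in fibrosis or the vascular matrix was set beside the members. All 18 were tested, 16 lay below 0 (log2 fold change, relative to the reference RNAs of the authors), and 0 passed in either direction (limma, adjusted p = 0.137 to 0.767). The median was -0.37, and the groups did not overlap for 5 of 18 (27.8%), against 35% of all assays. miR-143, a smooth muscle microRNA, had the smallest unadjusted p of the list, with a log2 fold change of -0.76 ± 0.255 (SE, limma unadjusted p = 0.0254). The next were let-7d at -0.58 ± 0.239 and miR-199a-3p, a microRNA of mesenchymal cells, at -0.60 ± 0.273 (limma unadjusted p = 0.0527 and 0.0727). miR-133a and miR-133b, which like miR-30 are known to repress connective tissue growth factor in rat and mouse heart, had -0.32 ± 0.285 and -0.24 ± 0.359. miR-21, which is induced in fibroblasts of the failing mouse heart, had -0.54 ± 0.272.

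Markers of cell types that an aorta can hold were read on the same arrays. All 6 myeloid markers had a log2 fold change below 0, where 78.2% of all assays did, and 4 of 6 did not overlap between the groups, where 35% of all assays did not, with 0 called. Their summed relative quantity was 2.52 to 3.83 in Dicer_KO aortas and 4.57 to 8.19 in Dicer_WT aortas, and for miR-147 all 3 Dicer_KO wells were empty. miR-511, which lies in the mannose receptor gene of macrophages, had a log2 fold change of -1.99 ± 0.340 and miR-223 one of -1.66 ± 0.346 (limma adjusted p = 0.0542 and 0.0641). Of the same list, miR-142-3p and miR-142-5p, which blood cells of many kinds express, had -0.074 ± 0.224 and -0.088 ± 0.210. The 2 smooth muscle markers were at 1.14 to 1.76 in Dicer_KO aortas and 1.81 to 2.19 in Dicer_WT aortas, with neither called. By itself each of the 2 was lower without overlap, where 32.6% of all assays were. The 2 endothelial markers were at 1.74 to 3.02 in Dicer_KO aortas and 1.70 to 2.23 in Dicer_WT aortas. The 2 erythroid markers were at 4.10 to 6.28 in Dicer_KO aortas and 1.00 to 3.60 in Dicer_WT aortas. Neither was called (limma adjusted p = 0.176 for miR-451 and 0.202 for miR-486). By itself miR-451 did not overlap and miR-486 did, where 2.39% of all assays were higher without overlap. The liver marker miR-122 was at 1.99 to 3.50 in Dicer_KO aortas and 0.369 to 2.33 in Dicer_WT aortas, and was not called (limma adjusted p = 0.228). Of 5 striated muscle markers 4 were tested and 0 called, at 6.46 to 14.0 in Dicer_KO aortas and 3.35 to 17.1 in Dicer_WT aortas. Most of that sum was miR-208 except in Dicer_WT replicate 2, where its well was empty. That empty well lowers the Dicer_WT geometric mean to which miR-208 is scaled, which makes its other values large. Its part of the sum is therefore not a part of the RNA. The markers miR-1, miR-133a and miR-133b lay at 0.529 to 1.41 in Dicer_KO aortas and 0.875 to 1.11 in Dicer_WT aortas. The part of these cell types in the values of the miR-29 and miR-30 members was not tested.

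Among the 369 assays other than members, those most like the miR-30 mean over the 6 aortas were the passenger strands of the family itself, miR-30e* (r = 0.994, Spearman's rho 1) and miR-30a* (r = 0.984, rho 0.886), followed by miR-26b (r = 0.983, rho 0.886). Such likeness was common, since 73 of the 369 assays had r over 0.9. For the miR-29 mean the closest were miR-147 (r = 0.944, rho 0.771), miR-344 (r = 0.942, rho 0.543) and miR-674* (r = 0.929, rho 0.829), and 10 assays had r over 0.9. The value of miR-147 rests on the level set for its empty Dicer_KO wells. These correlations are descriptions over 6 aortas that share their reference RNAs.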

How the data were processed

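Whole-aorta total RNA of 6 mice was converted to cDNA with TaqMan microRNA reagents, preamplified and measured by TaqMan PCR, per the labels' protocols. The table of Ct values deposited by the authors has 335 and 182 microRNA assays on 2 cards, with Ct 40 for wells without product, and 5 cells with a decimal comma were read with a point. The relative quantities deposited by the authors are a linear ratio: from the values, log2 of this ratio equals the mean reference-RNA Ct, within each aorta and card, less the Ct of the assay, scaled to a Dicer_WT geometric mean of 1 (largest difference 5.22e-06). The first card used U6, snoRNA135 and snoRNA202, the second also snoRNA429. The fold changes deposited by the authors are a linear ratio of Dicer_KO over Dicer_WT. The sources used here give no software, Ct threshold, array lot or date, and technical batches could not be tested.

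Undetected wells (Ct 35 or more) were set to Ct 35. The 377 assays with product in 2 or more of the 3 aortas of a group were compared on the log2 scale with limma 3.58.1 in R 4.3.3 (lmFit, eBayes, two-sided, Benjamini-Hochberg over all 377, threshold 0.05), and the members' entries are printed. The limma fit alone was tested on simulated data, with assays drawn independently. Normalization, the set values, the detection filter, a shift shared by the assays of an aorta and the permutation tests were not simulated. Differences between assays were compared with exact permutation tests (scipy 1.17.1). The number of arrays limits the precision. Alternatives were other scales and reference RNAs, Ct cutoffs, treatments of undetected wells, filters, a replicate block, a mean trend in eBayes and leaving out each aorta. The comparison of guide with passenger strands and the correlations after mean centring were added after the data had been seen.

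The members and lists were chosen with earlier results of these data known. Named were all members, their hairpins' passenger strands, assays with a member's seed, the 3 assays most like each family's mean, the control RNAs used as references with U87 and Y1, and from the other lists those with the smallest unadjusted p. miR-133a, miR-133b, miR-21, miR-142-3p, miR-142-5p, miR-1 and miR-208 fall outside this rule and were chosen after their values were seen.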

Additional observations from a re-analysis of the deposited data

How the results depend on the processing

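The 8 members were refitted under 19 alternatives, which gave 152 values. Ct cutoffs, treatments of undetected wells, detection filters, the replicate block and the eBayes trend could change a member's p-value but not its log2 fold change. All members were detected in every aorta, and each replicate number had 1 aorta per group. The count below 0 includes these fixed values, so it does not measure how stable the sign was. None of the 152 values passed the threshold, 131 stayed below 0, 1 (miR-30b after quantile normalization) was at 0.00 and 20 turned above 0, these on 3 scales. With mean centring they were 0.29 for miR-29a, 0.072 for miR-29b, 0.23 for miR-29c, 0.13 for miR-30a, 0.052 for miR-30b, 0.10 for miR-30c and 0.23 for miR-30e. Relative to U87 and Y1 they were, in the same order with miR-30d before miR-30e, 0.44, 0.22, 0.38, 0.28, 0.20, 0.25, 0.14 and 0.38. After quantile normalization miR-29a was at 0.094, miR-29c at 0.24, miR-30a at 0.15, miR-30c at 0.16 and miR-30e at 0.17. The medians of all 8, of miR-29 and of miR-30 were -0.47, -0.36 and -0.49 without normalization, 0.12, 0.23 and 0.10 with mean centring, 0.26, 0.38 and 0.25 relative to U87 and Y1, and 0.12, 0.094 and 0.15 after quantile normalization. Relative to U6 alone those of all 8 and of miR-29 were -0.41 and -0.30. Leaving out 1 aorta gave -0.30 to -0.14 for all 8, -0.20 to -0.10 for miR-29 and -0.36 to -0.18 for miR-30. The causes were not tested.

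The count of all assays called, 7 lower and 0 higher, was less stable: 24 and 2 at a Ct cutoff of 32, 16 and 1 with undetected wells missing, 13 lower with Ct 40 taken as measured, 20 and 2 among assays detected in all 6 aortas, and 0 with a mean trend and robust eBayes. Mean centring called 1 higher, and U87 and Y1 and quantile normalization 2 each. Leaving out 1 aorta gave 5 to 55 lower and 0 to 9 higher, the highest of both without Dicer_KO replicate 1, with 11 lower without Dicer_KO replicate 2 and 1 higher without Dicer_WT replicate 2. Same-numbered aortas did not deviate together (correlations of their deviations over assays -0.084, -0.10 and 0.043), so the numbers were not taken as pairs. With the replicate block the counts were 7 lower and 0 higher, and the adjusted p of miR-30d was 0.149. The block changed no member's call. The difference of miR-30a and miR-30c turned to -0.011 after quantile normalization, and leaving out 1 aorta gave -0.031 to 0.088.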
